A study of Mus musculus with 48 samples.

Results

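The genes described here are 31 targets and regulators of the sterol regulatory element-binding proteins (SREBPs) that build sterols and fatty acids. They were chosen by name from the 55376 gene rows of a nascent RNA count table. They form 3 arms: 18 enzymes of sterol synthesis, 6 regulators and 7 enzymes of fatty acid synthesis. Of the 31 members, 26 were expressed strongly enough to be tested, among 8017 such genes in all. The list was drawn up with earlier results of these data in view, the rise of Insig1 with BRM014 above all. That rise is therefore given as a description with no test.

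The cells were TCF2.2, mouse embryonic stem cells derived in 2i medium, with the strain given as C57BL/6, and their nascent RNA was measured. In each of the 8 libraries, 500 µM 4-thiouridine was offered to the cells for 5 min, and the RNA that carried it was purified and sequenced beside ERCC spike-in RNA. The 4 groups held 2 libraries each, described as biological duplicates: cells with 10 µM BRM014 for 3 h, cells with DMSO for 3 h, cells infected with a lentivirus for an shRNA against Chd4, and cells infected with one for a scrambled shRNA. Both infected groups were at 24 h with 1.5 µg/mL puromycin. BRM014 inhibits the SWI/SNF remodelling ATPases BRG1 and BRM, and Chd4 encodes the ATPase of the NuRD complex. The 40 chromatin immunoprecipitation samples of the series were not analysed here.

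SREBPs are made as precursors in the membrane of the endoplasmic reticulum. When membrane sterol is low, the escort protein SCAP carries them to the Golgi, where 2 proteases free the part that enters the nucleus and activates genes. When sterol is high, INSIG proteins hold SCAP and its cargo back. Srebf2 mainly drives sterol genes and Srebf1 mainly fatty acid genes, and Insig1 is itself a target of the pathway, so its transcription is a known readout of SREBP activity. Embryonic stem cells divide fast and need lipid for new membrane.

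SREBPs bind the sterol regulatory element (SRE) beside general factors, among them NF-Y at CCAAT boxes and Sp1 at GC boxes. RefSeq sequence of GRCm38.p6 around the gene start, from 250 bases before it, in 300-base windows, was at hand for 25 of the 31 members and for 4520 of the tested genes. Searched on both strands, the SRE written TCACNCCAC occurred in 1 of the 25 members (4%), Hmgcs1, against 1.15% of the tested genes. With 1 mismatch to TCACCCCAC allowed, a wider search added after the first, it occurred in 5 (20%) against 9.67%. The 5 were Hmgcs1, Nsdhl, Hsd17b7, Acat2 and Srebf2. The CCAAT box, written CCAAT, occurred in 19 of the 25 (76%) against 42.7% of the tested genes. Of the sterol enzymes, 13 of 15 held it (86.7%), as did 4 of 5 regulators (80%) and 2 of 5 fatty acid enzymes (40%). The GC box GGGCGG occurred in 19 of 25 members (76%) against 67.1%, in 14 of the 15 sterol enzymes (93.3%), 3 of 5 regulators (60%) and 2 of 5 fatty acid enzymes (40%). The E-box CACGTG occurred in 4 of 25 (16%) against 11.4%. These are matches of letters, and no binding was measured here.

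The region before Insig1, chr5:28071162-28071362 on the plus strand, is shown because this gene had the largest change among the members with BRM014. Capitals mark a CCAAT box on the opposite strand (ATTGG), GC boxes on either strand and an E-box.
Insig1: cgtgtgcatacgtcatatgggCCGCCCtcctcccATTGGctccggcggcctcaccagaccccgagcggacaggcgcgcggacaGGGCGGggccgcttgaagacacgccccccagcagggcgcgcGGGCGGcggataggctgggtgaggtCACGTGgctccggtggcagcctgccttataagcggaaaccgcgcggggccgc

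The stretch of Hmgcs1 that holds the SRE lies at chr13:119690189-119690247, plus strand, and that of Srebf2 with a near match to the SRE and a CCAAT box at chr15:82147106-82147165, plus strand. Capitals mark the SRE or near match and, in Srebf2, the CCAAT box on the opposite strand.
Hmgcs1: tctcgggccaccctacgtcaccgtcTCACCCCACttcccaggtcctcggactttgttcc
Srebf2: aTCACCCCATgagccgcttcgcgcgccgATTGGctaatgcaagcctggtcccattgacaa

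The CCAAT boxes of the other members called higher with BRM014, in capitals on either strand within 30 bases, are shown to compare them. The Idi1 sites are at chr13:8885549-8885578 and chr13:8885580-8885609 on the plus strand. The Cyp51 site is at chr5:4104709-4104738 and the Msmo1 sites are at chr8:64733721-64733750, chr8:64733657-64733686 and chr8:64733616-64733645, all on the minus strand. Each name is followed by the distance of the box from the RefSeq start in bases, negative before it. On the deposited gene coordinates, which begin further upstream, each of these sites lies within its gene.
Idi1 at -45: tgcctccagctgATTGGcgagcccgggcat
Idi1 at -14: gtccaaggtgccATTGGctggcgaccgaca
Cyp51 at -29: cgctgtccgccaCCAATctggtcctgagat
Msmo1 at -160: ccatccgcgcagCCAATgactggcgccgct
Msmo1 at -96: ccttagcacggaCCAATcactgcacggcga
Msmo1 at -55: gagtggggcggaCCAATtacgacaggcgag

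The libraries held between 6982354 and 17128981 gene counts. Background was read from 1434 olfactory and vomeronasal receptor genes. It was 6.78 and 7.21 counts per kb of exon in the libraries labelled Chd4 shRNA and between 1.32 and 2.66 in the other 6, although the former were the shallowest. For Chd4 itself, 730 and 760 reads were counted under the Chd4 shRNA label and 806 and 618 under the scrambled label. Relative to other expressed genes that was higher by 0.59 ± 0.16 on the log2 scale (edgeR adjusted p = 0.00614), which goes against the label. An shRNA acts on finished mRNA, so nascent counts do not measure the knockdown itself, and the group is called here by its label. All 10 stem cell markers were tested as expressed, and 0 of 6 markers each of primitive endoderm, trophoblast and fibroblasts or feeder cells were. None of the latter was at least 3-fold above background. Trophoblast markers, the most above it, summed to between 9.65 and 12.7 counts per 1000000 effective counts in 3 groups, with a background of 3.97 to 5.07. Under the Chd4 shRNA label they summed to 39.4 and 42.2 with a background of 32.3, and fibroblast markers to 66.2 and 80.0 with one of 48.9.

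Levels are given as counts per kb of exon per 1000000 effective counts of the tested genes. The median level over the members of an arm, averaged over both DMSO libraries, was 7.67 in the sterol arm, 5.08 in the regulator arm and 6.79 in the fatty acid arm. Pmvk, the second kinase of the mevalonate chain, had the top mean level in DMSO, 37.0 ± 3.2 (SD, n = 2). Insig1 followed at 24.7 ± 3.8, Scd2, a stearoyl-CoA desaturase, at 23.5 ± 4.5, Mvd, the mevalonate decarboxylase, at 21.4 ± 0.7, and Msmo1, the sterol methyl oxidase, at 20.7 ± 1.2. Fdft1 was next at 20.1 ± 2.0. The spreads of Insig1, Scd2, Mvd, Msmo1 and Fdft1 overlap in part, so their order is not resolved. At the bottom stood Scap at 0.916 ± 0.108, Acaca, the acetyl-CoA carboxylase of fatty acid synthesis, at 1.07 ± 0.01, Insig2 at 1.09 ± 0.07 and Hsd17b7 at 1.17 ± 0.01.

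**Figure D1:**
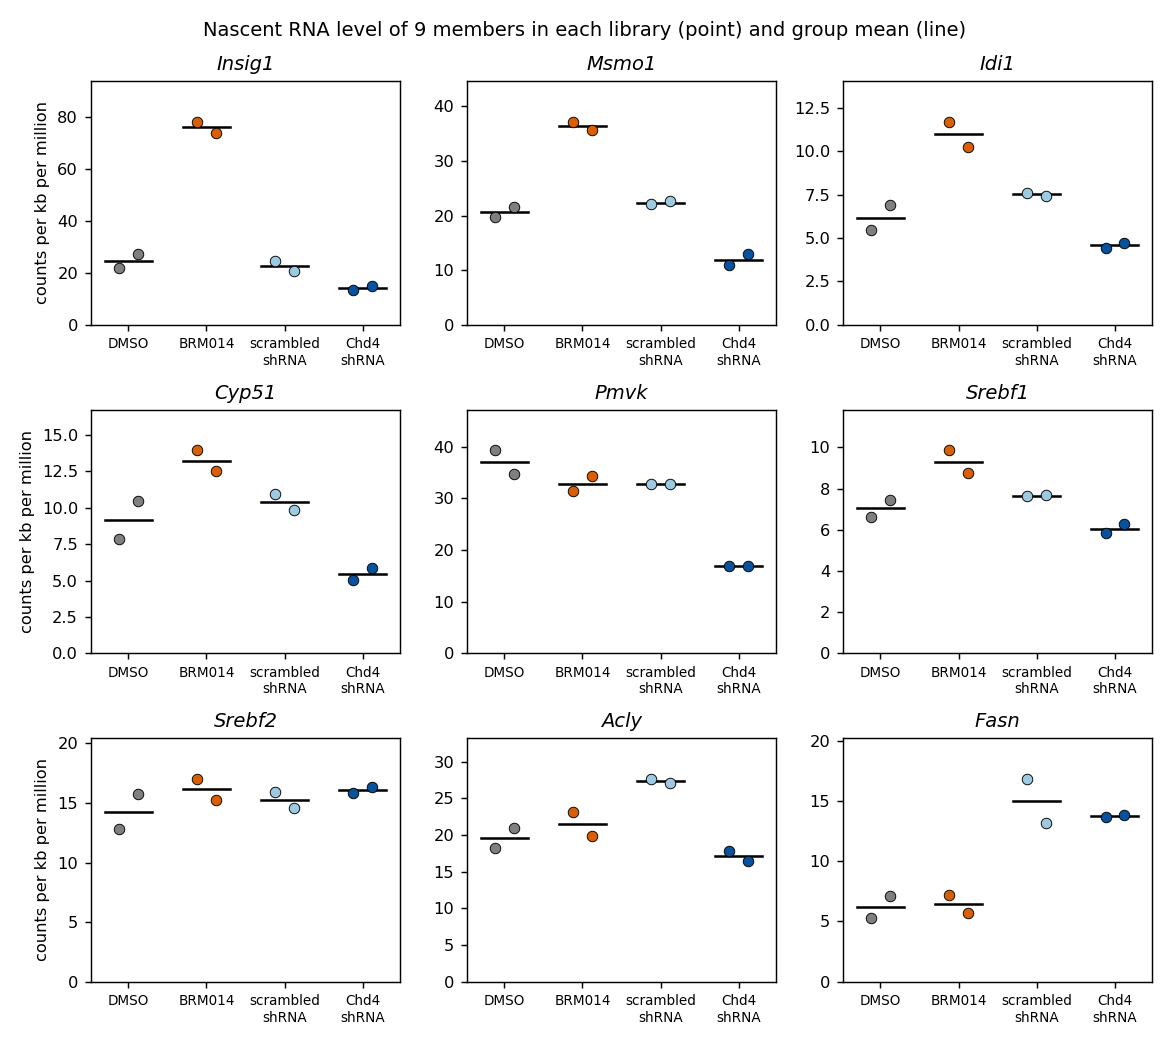
Level of 9 members in counts per kb of exon per 1000000 effective counts of tested genes (vertical axis from 0) in the 4 groups. Each point is a library and each line the mean of 2. Insig1, Msmo1, Idi1 and Cyp51 stand above both DMSO points with BRM014 and below both scrambled points in the libraries labelled Chd4 shRNA, whereas the Srebf2 points overlap.

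BRM014 was compared with DMSO to ask how these genes respond within hours to loss of SWI/SNF activity. Insig1 and 3 sterol enzymes, Msmo1, Idi1 and Cyp51, had more nascent RNA with BRM014, and no tested member was called lower. By edgeR's quasi-likelihood test, adjusted over all 8017 genes, 3 of the 25 tested members other than Insig1 were called higher (12%) and 0 lower, beside 2.46% of all tested genes higher and 4.69% lower. Insig1, which led to the list, is not set against that share. It was past the threshold too, which makes 4 of 26. DESeq2 gave 4 and 0, Insig1 included, and 0 members were lower at an unadjusted p under 0.05. In the fatty acid arm 0 were higher by either tool, and 1 at an unadjusted p under 0.05. The median log2 fold change was 0.28 in the sterol arm and 0.10 in the fatty acid arm, against -0.005 over all tested genes. The regulator median, 0.37, has Insig1 among its 4 genes and is not set against that value. The other 3 regulators were at 0.40 (Srebf1), 0.34 (Stard4) and 0.18 (Srebf2), none of them called. Both BRM014 libraries lay above both DMSO libraries for Insig1 and for 15 of the other 25 members, beside 23.6% of all tested genes, and below both for 2, Pmvk and Tm7sf2, beside 24.6%. With Insig1 these were 12 of 16 sterol enzymes, 3 of 4 regulators and 1 of 6 fatty acid enzymes.

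Insig1, the protein that retains SCAP, was at 78.0 and 73.6 with BRM014, 21.95 and 27.4 with DMSO, 24.5 and 20.5 with the scrambled shRNA and 13.4 and 14.8 in the libraries labelled Chd4 shRNA. The BRM014 libraries stood apart at the top, and the libraries labelled Chd4 shRNA at the bottom. The ratio of BRM014 to DMSO was 3.07-fold, a log2 fold change of 1.62 ± 0.14 (SE). Without Insig1 the members together took 1612 and 1489 counts per 1000000 effective counts with BRM014, against 1177 and 1359 with DMSO. With the scrambled shRNA, the other control, they took 1739 and 1559, and in the libraries labelled Chd4 shRNA 1289 and 1319.

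Msmo1, which oxidises the methyl groups that are taken off the sterol ring, was at 37.2 and 35.7 with BRM014 and 19.8 and 21.6 with DMSO. It was at 22.1 and 22.6 with the scrambled shRNA and 10.9 and 13.0 in the libraries labelled Chd4 shRNA. The groups do not overlap on either side. Msmo1 rose 1.76-fold with BRM014, a log2 fold change of 0.82 ± 0.13 (edgeR adjusted p = 0.00027).

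Idi1, the isomerase that makes the 5-carbon unit reactive, was at 11.7 and 10.2 with BRM014 and 5.43 and 6.89 with DMSO. Both scrambled libraries were close to each other at 7.57 and 7.44, and the libraries labelled Chd4 shRNA were at 4.42 and 4.73, the bottom of the 4 groups. Idi1 rose by 0.83 ± 0.13 on the log2 scale with BRM014, or 1.77-fold (edgeR adjusted p = 0.000384).

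Cyp51, the lanosterol demethylase, was at 13.96 and 12.5 with BRM014, 7.89 and 10.4 with DMSO, 10.9 and 9.87 with the scrambled shRNA and 5.01 and 5.89 in the libraries labelled Chd4 shRNA. The BRM014 libraries were above all others. The rise of 0.53 ± 0.14 on the log2 scale (edgeR adjusted p = 0.0254) was not called without BRM014 library r1 (0.47) or without DMSO library r1 (0.34). Akap9 lies over Cyp51 on the other strand, with a mean of 285 counts beside 529 for Cyp51, and whether strand was used in counting is not stated.

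The other regulators did not pass the test with BRM014. Srebf1 was at 9.87 and 8.74 with BRM014 and 6.64 and 7.45 with DMSO, both higher than both controls, with a log2 fold change of 0.40 ± 0.13 (edgeR adjusted p = 0.061). Srebf2 was at 17.05 and 15.3 against 12.8 and 15.8, which overlap, at 0.18 ± 0.13 (adjusted p = 0.502). Stard4, a carrier of cholesterol between membranes, had 0.34 ± 0.16 (adjusted p = 0.212).

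Among the 13 sterol enzymes that were tested and not called, 9 had a positive log2 fold change, between 0.14 for Nsdhl, a sterol dehydrogenase, and 0.38 for Hmgcs1, which makes HMG-CoA. The 4 with a negative one were Mvk, the mevalonate kinase, at -0.06, Tm7sf2, a sterol reductase, at -0.11, Ebp, the sterol isomerase, at -0.12, and Pmvk at -0.17. The enzymes on either side of the mevalonate kinases in the pathway, Hmgcs1 and Mvd stood at 0.38 and 0.32. The 6 tested fatty acid enzymes lay between -0.08 for Elovl6, a fatty acid elongase, and 0.32 for Fads2, a desaturase, and 5 of the 6 overlapped their controls.

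Hsd17b7 and Sc5d, late sterol enzymes, had mean counts 5.28-fold and 9.27-fold above background, under the 10-fold needed for testing, while Nsdhl, just inside, had 11.8-fold. In a wider fit of the 15464 genes at least 3-fold above background, where 3.22% of genes were called higher, both were called higher with BRM014. Hsd17b7 had 0.50 ± 0.16 (edgeR adjusted p = 0.0387) and Sc5d 0.53 ± 0.14 (adjusted p = 0.0127). In that fit Insig2, the second INSIG, was at 0.50 ± 0.19 (adjusted p = 0.0982), Scap at 0.01 ± 0.16 (adjusted p = 0.985) and Acaca at -0.09 ± 0.15 (adjusted p = 0.799).

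These fold changes are relative to other expressed genes. On library sizes from the ERCC RNAs with TMM scaling the median of all tested genes stood at 0.14, with 0 members and 0 genes called, and 1 member higher at an unadjusted p under 0.05. On plain ERCC sums it stood at 0.004, with 13 genes higher, 1 a member, and 93 lower in place of 197 and 376. Leaving out DMSO library r2, so that 1 DMSO library remained, raised the calls among the members and over all tested genes alike.

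**Figure D2:**
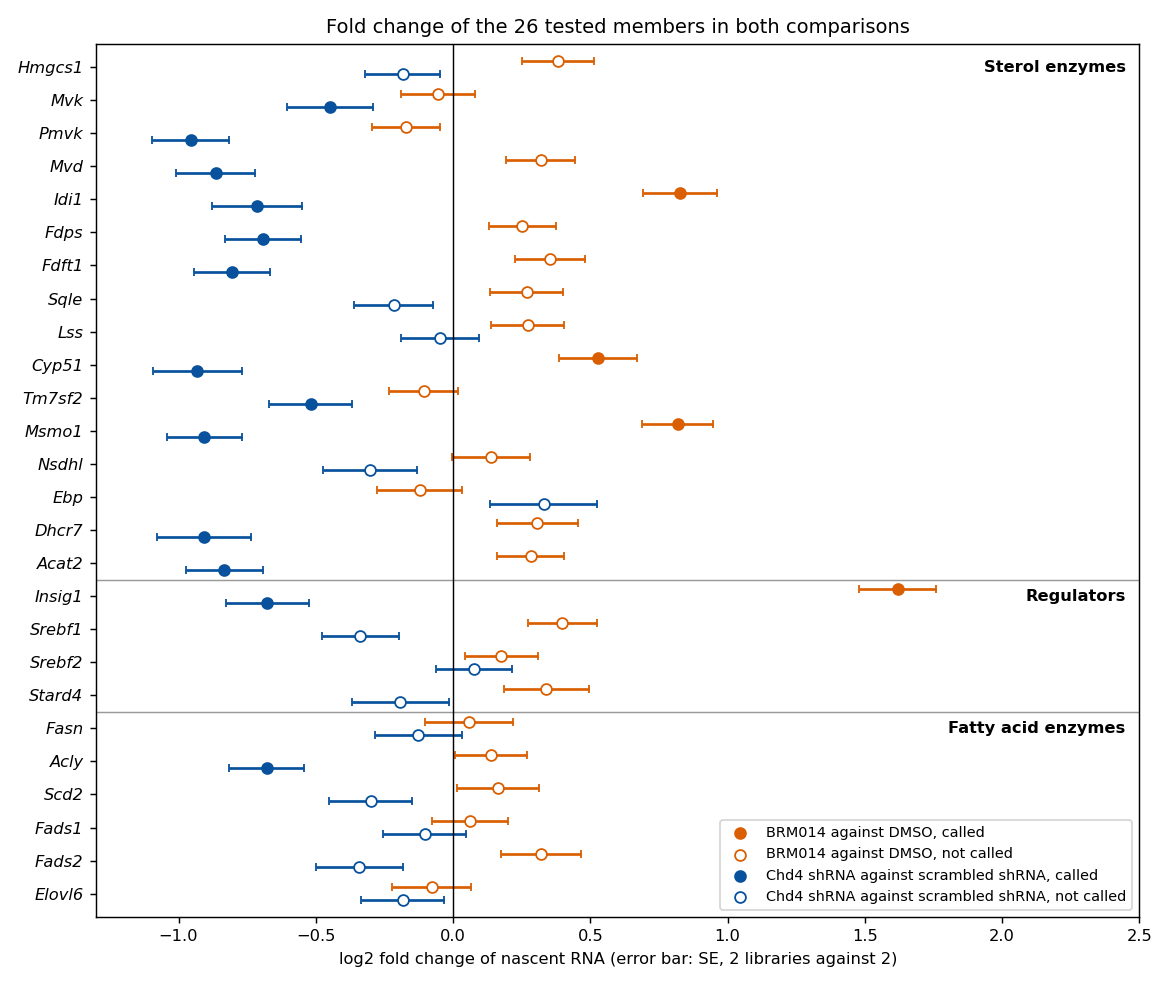
Log2 fold change with SE (horizontal axis) of the 26 tested members, by arm, for BRM014 against DMSO and for Chd4 shRNA against scrambled shRNA, each 2 libraries against 2. Filled points are called at an edgeR adjusted p under 0.05. Only Ebp has its Chd4 shRNA point right of its BRM014 point.

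The libraries labelled Chd4 shRNA were compared with the scrambled libraries, the other remodeller and its own control. Here 11 of 16 tested sterol enzymes were called lower (68.8%), together with Insig1 and the fatty acid enzyme Acly. No tested member was called higher. Of the members outside the main test, Insig2 and Acaca were called higher in the wider fit, as given below. The sterol enzymes outside it were not called there. Hsd17b7 had 0.02 ± 0.19 (edgeR adjusted p = 0.933) and Sc5d 0.07 ± 0.16 (adjusted p = 0.739), where the median of the main-test genes stood at -0.37. Both libraries labelled Chd4 shRNA lay above both scrambled ones for each enzyme. Background, not subtracted, would give 54.9% (Hsd17b7) and 31.8% (Sc5d) of their counts under that label, against 11.35% and 6.80% in the scrambled libraries. In all, 13 of 26 members were called lower (50%) and 0 higher by edgeR, beside 20.2% of all tested genes lower and 20.4% higher. DESeq2 gave 12 and 0, and 0 were higher at an unadjusted p under 0.05. The shares called lower in the regulator arm, 1 of 4 (25%), and in the fatty acid arm, 1 of 6 (16.7%), are near that background. The median log2 fold change was -0.70 in the sterol arm, -0.27 in the regulator arm and -0.24 in the fatty acid arm, against 0.005 over all tested genes. Without scrambled library r1 the regulator and fatty acid medians relative to that of all genes were -0.13 and -0.09. Both libraries labelled Chd4 shRNA lay below both scrambled libraries for 19 of 26 members, beside 36.8% of all tested genes, and above both for 0, beside 37.3%.

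The enzymes from mevalonate to farnesyl diphosphate are given first. Pmvk was at 16.97 and 16.8 in the libraries labelled Chd4 shRNA against 32.8 and 32.8, and at 31.3 and 34.4 with BRM014 against 39.3 and 34.8. Its fall was 0.96 ± 0.14 on the log2 scale (log2 fold change -0.96, edgeR adjusted p = 2.85e-05). That fall was not resolved from those of Cyp51, Dhcr7, Msmo1, Mvd and Acat2, which lie within its SE. Mvd, at 14.9 and 13.3 against 26.7 and 24.7, had -0.87 ± 0.14 (adjusted p = 8.74e-05). In the other pair it was at 25.4 and 27.9 with BRM014 and 20.9 and 21.8 with DMSO.

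Idi1 had a log2 fold change of -0.71 ± 0.16 (edgeR adjusted p = 0.00168). Fdps, the farnesyl diphosphate synthase, was at 6.33 and 5.87 against 10.3 and 9.39, at -0.69 ± 0.14 (adjusted p = 0.000594). With BRM014 it was at 10.7 and 10.6 and with DMSO at 8.76 and 9.07. A predicted gene on the same strand, Gm43738, overlaps Fdps, with a mean of 336 counts beside 458, so reads could be split between them.

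Mvk was at 7.49 and 6.13 against 9.66 and 8.94, and at 8.11 and 6.84 with BRM014 and 8.02 and 7.45 with DMSO. Its log2 fold change of -0.45 ± 0.16 (edgeR adjusted p = 0.0262) was lost without library r4 of the Chd4 shRNA label (-0.32) or scrambled library r1 (-0.39). It was lost with DESeq2 as well (-0.44).

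Further along, Fdft1, the squalene synthase, was at 12.1 and 10.5 against 19.4 and 20.2, and at 25.96 and 25.3 with BRM014 against 18.6 and 21.5 with DMSO. The BRM014 libraries were highest and those labelled Chd4 shRNA lowest, and the fall had a log2 fold change of -0.81 ± 0.14 (edgeR adjusted p = 0.000133). Ctsb overlaps Fdft1 on the other strand with a mean of 1056 counts against 998, and the share of its reads in the Fdft1 counts is not known.

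Msmo1 had -0.91 ± 0.14 (edgeR adjusted p = 3.54e-05) and Cyp51 -0.93 ± 0.16 (adjusted p = 0.00016), so both enzymes that begin to trim lanosterol fell, to 0.534 and 0.524 of the scrambled level. Dhcr7, the last reductase before cholesterol, was at 4.25 and 3.19 against 7.42 and 6.56, and at 7.69 and 6.64 with BRM014 against 5.05 and 6.50. Its log2 fold change was -0.91 ± 0.17 (adjusted p = 0.000316).

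Acat2, which joins acetyl-CoA units ahead of the pathway, was at 8.83 and 9.32 against 16.5 and 15.8, and at 14.8 and 14.6 with BRM014 against 11.6 and 12.5. It had -0.83 ± 0.14 (edgeR adjusted p = 0.000102). Tm7sf2 was at 3.67 and 3.27 against 5.06 and 4.90, and at 4.56 and 4.09 with BRM014 against 4.69 and 4.61. It had -0.52 ± 0.15 (adjusted p = 0.00921), a call lost without library r4 of the Chd4 shRNA label (-0.44). Vps51 overlaps Tm7sf2 on the same strand.

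The tested sterol enzymes that were not called had log2 fold changes between -0.30 and 0.33. Hmgcs1 was at 12.8 and 13.5 against 16.3 and 13.6, and at 16.2 and 15.4 with BRM014 against 11.3 and 12.8 with DMSO. Its libraries labelled Chd4 shRNA were below both scrambled ones by little, with -0.18 ± 0.14 (edgeR adjusted p = 0.301). Sqle, the squalene epoxidase, had -0.22 ± 0.14, Lss, the lanosterol synthase, -0.05 ± 0.14 and Nsdhl -0.30 ± 0.17. Ebp had 0.33 ± 0.19, and was called higher without scrambled library r1 (0.59).

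Of the regulators, Insig1 had -0.68 ± 0.15 (edgeR adjusted p = 0.00142), from raw counts of 256 and 276 against 660 and 562. Srebf1 was at 5.82 and 6.29 against 7.62 and 7.69, with both libraries lower and -0.34 ± 0.14 (adjusted p = 0.0604). Srebf2 was at 15.9 and 16.3 against 15.9 and 14.6, which overlap, with 0.08 ± 0.14 (adjusted p = 0.687). Stard4 had -0.19 ± 0.18.

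Scap was at 2.21 and 2.18 against 1.70 and 1.27, and Insig2 at 2.698 and 3.01 against 1.26 and 1.23. Background would give 52.04% of the mean Scap count and 40.1% of the mean Insig2 count in the libraries labelled Chd4 shRNA, against 12.1% and 14.4% in the scrambled ones. In BRM014 and DMSO, Scap was at 0.986 and 0.835 against 0.839 and 0.992, and Insig2 at 1.29 and 1.67 against 1.14 and 1.05. Neither was in the main test, since both lie under 10-fold above background. In the wider fit, where 25.1% of genes were called higher and the median of the 8017 genes stood at -0.37, Insig2 was called higher at 0.82 ± 0.22 (edgeR adjusted p = 0.00213) and Scap was at 0.19 ± 0.17 (adjusted p = 0.351). Background was not subtracted from those values.

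In the fatty acid arm, Acly, the ATP citrate lyase that makes cytosolic acetyl-CoA for both arms, fell. It was at 17.8 and 16.4 against 27.7 and 27.1, and at 23.2 and 19.9 with BRM014 against 18.3 and 20.9, with -0.68 ± 0.14 (edgeR adjusted p = 0.000541). Fads2 was at 10.3 and 12.1 against 15.1 and 13.3, and at 16.4 and 14.2 with BRM014 against 10.6 and 13.9. It had -0.34 ± 0.16 (adjusted p = 0.0905), and Scd2 had -0.30 ± 0.15. Fasn, the fatty acid synthase, had -0.13 ± 0.16, Fads1, a desaturase, -0.10 ± 0.15 and Elovl6 -0.18 ± 0.15. Acaca was at 3.33 and 3.82 against 1.98 and 1.51, with background at 32.0% of its counts against 10.3%. It was called higher in the wider fit, at 0.67 ± 0.14 (adjusted p = 0.000228).

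The background level per kb, read from receptor genes, was higher in the libraries labelled Chd4 shRNA, and its source was not tested. At that level background would give between 3.4% (Scd2) and 33.5% (Nsdhl) of the counts of the tested members there. In the scrambled libraries its share ran from 0.434% to 4.27%. With background subtracted by exon length, 15 members in place of 13 were called lower. The stem cell markers moved as well: 7 of 10 were called lower in this comparison (70%), beside 20.2% of all tested genes. Their median was -0.79. Their summed level was 1881 and 1921 counts per 1000000 effective counts against 2997 and 3107. The part of these shifts in the members' results was not tested. In bulk libraries, fewer cells of a type and less RNA per cell cannot be told apart.

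With ERCC sizes 0 members were called lower in this comparison by edgeR, also at an unadjusted p under 0.05, and the median of all tested genes moved to 0.18 (TMM) or 0.59 (plain sums). All genes called were then 61 higher and 6 lower, or 2809 and 65. On plain sums Mvk stood at 0.11 and Tm7sf2 at 0.051, below the shifted median, and Ebp was called higher at 0.96. With TMM over all 35426 genes that passed filterByExpr the median stood at -1.34, and 11134 of the 35426 were called lower. So were 26 of 26 members, and Srebf2 (-1.28) and Ebp (-1.02) turned negative. Both stayed above that median.

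**Figure D3:**
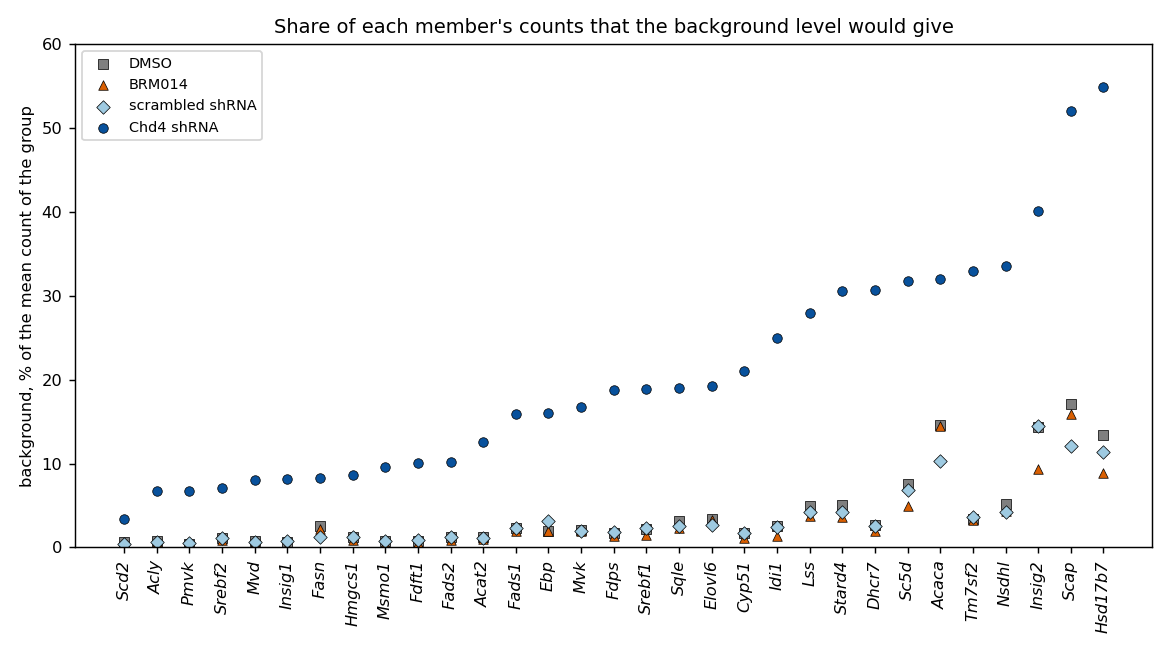
Share of each member's mean count that background would give (vertical axis, percent), from receptor genes and exon length, for the 31 members in order of the share in the libraries labelled Chd4 shRNA. In those libraries the share runs from 3.4% for Scd2 to 54.9% for Hsd17b7, and in each other group every member is under 18%.

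The difference between both effects was tested directly, Chd4 shRNA effect minus BRM014 effect. For 13 of the 25 members other than Insig1 (52%) the Chd4 shRNA effect was lower, and for 0 it was higher, beside 14.5% and 16.4% of all tested genes. The 13 were 10 of 16 sterol enzymes, the regulator Srebf1, and Acly and Fads2 in the fatty acid arm. Insig1 was past the threshold too, by -2.30 ± 0.21, but that difference includes the BRM014 rise that led to the list and is only described. With it, 14 of 26 were lower, DESeq2 gave 14 lower and 0 higher, and 0 were higher at an unadjusted p under 0.05. Msmo1 differed by -1.72 ± 0.19 on the log2 scale (edgeR adjusted p = 1.72e-06), Idi1 by -1.54 ± 0.21 (adjusted p = 2.41e-05) and Cyp51 by -1.46 ± 0.22 (adjusted p = 5.5e-05). Srebf1, called in neither comparison alone, differed by -0.74 ± 0.19 (adjusted p = 0.00578). Hmgcs1, also called in neither, differed by -0.57 ± 0.19 (adjusted p = 0.0276), or by 0.042 on plain ERCC sums, where the median was 0.59. The call was lost in 9 of 20 alternatives, plain sums among them. The others were ERCC sizes with TMM (-0.49), background subtracted (-0.47), genes at least 30-fold above background (-0.41), and leaving out BRM014 library r1 (-0.56) or r2 (-0.60), Chd4 shRNA library r1 (-0.53) or r4 (-0.62), or scrambled library r1 (-0.43). Fads2, at -0.66 ± 0.21 (adjusted p = 0.0237), lost its call in 7 of 20: with ERCC sizes, TMM (-0.56) or plain (-0.033), at 30-fold (-0.50) and without BRM014 library r1 (-0.59), Chd4 shRNA library r1 (-0.55), DMSO library r1 (-0.48) or scrambled library r1 (-0.57). Srebf2 differed by -0.10 ± 0.19 (adjusted p = 0.726). The treatments differ in agent, time and control, so the difference compares these 2 experiments. On plain ERCC sums all genes gave 1322 higher and 22 lower, 1 of them a member.

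The controls were compared with each other to give the members' starting level in each experiment. Virus, puromycin and hours in culture differ together between them, so their parts cannot be told apart. The comparison shares libraries with the other 2 and is not independent of them. In the scrambled libraries 4 of 6 tested fatty acid enzymes were higher than in DMSO (66.7%), as were 4 of 16 sterol enzymes (25%) and 0 of 4 regulators, beside 6.86% of all tested genes by edgeR. DESeq2 gave 4 fatty acid enzymes, 1 sterol enzyme and 0 regulators higher, and 1 regulator at an unadjusted p under 0.05. No member was lower, beside 6.24%; at an unadjusted p under 0.05 it was 1, Ebp, and DESeq2 gave 0. Both scrambled libraries lay above both DMSO libraries for 18 of 26 members, beside 25.2% of all tested genes, and below both for 2, beside 25%. Medians were 0.53 in the fatty acid arm, 0.27 in the sterol arm and 0.11 in the regulator arm, against 0.02 over all tested genes.

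Fasn was at 16.9 and 13.2 in the scrambled libraries and 13.7 and 13.9 in those labelled Chd4 shRNA, against 5.27 and 7.12 with DMSO and 7.20 and 5.74 with BRM014. Thus all 4 infected libraries lay above all 4 others. Scrambled against DMSO was 2.42-fold, a log2 fold change of 1.28 ± 0.16 (edgeR adjusted p = 2.72e-05). Scd2 was at 45.0 and 37.8 and at 32.3 and 35.0 in the infected groups, against 20.3 and 26.7 with DMSO and 28.6 and 24.1 with BRM014. Here too the infected libraries were above the others, with 0.82 ± 0.15 for the controls (adjusted p = 0.00122).

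Elovl6 had 0.57 ± 0.14 (edgeR adjusted p = 0.0129) and Acly 0.48 ± 0.13 (adjusted p = 0.0186). Unlike Fasn, Acly stood below both DMSO libraries in the libraries labelled Chd4 shRNA. Acaca, the enzyme before Fasn in the pathway, was at 1.98 and 1.51 in the scrambled libraries against 1.06 and 1.08. It was untested here and called at 0.64 ± 0.15 in the wider fit (adjusted p = 0.00326), where 5.23% of genes were called higher. In the same fit Scap was higher at 0.64 ± 0.17 (adjusted p = 0.0104). Fads1 and Fads2 had 0.19 ± 0.14 and 0.21 ± 0.15.

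The 4 sterol enzymes called were Nsdhl at 0.49 ± 0.15 (edgeR adjusted p = 0.0336), Sqle at 0.47 ± 0.14 (adjusted p = 0.0262), Lss at 0.43 ± 0.14 (adjusted p = 0.0396) and Acat2 at 0.42 ± 0.13 (adjusted p = 0.03). Fasn and Scd2 were the only members still called higher without DMSO library r1, or without scrambled library r1. Without DMSO library r2 calls rose among the members and over all tested genes. With ERCC sizes and TMM no member was called (1 at an unadjusted p under 0.05), and plain sums gave 418 genes higher and 12 lower in place of 550 and 500, with the median at 0.45.

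**Figure D4:**
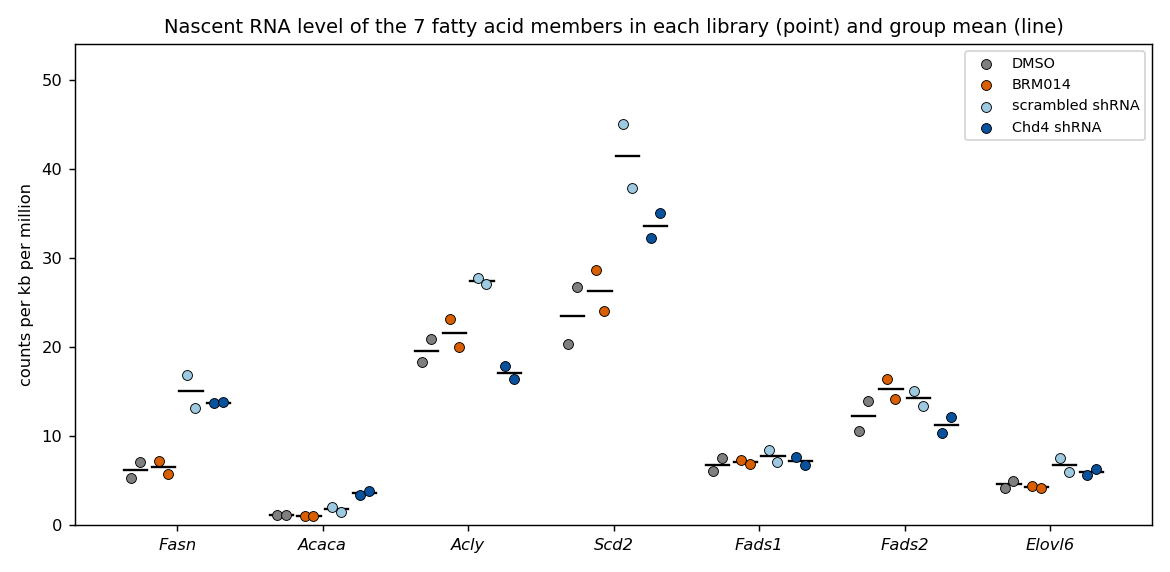
Level of the 7 fatty acid enzymes in counts per kb of exon per 1000000 effective counts of tested genes (vertical axis from 0) in each of 8 libraries, with group means of 2 as lines. For Fasn, Acaca, Scd2 and Elovl6 the 4 infected libraries are above the 4 others, and for Acly only the scrambled ones are.

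Other genes of the pathway were described from lists written from general knowledge. Of 17 genes that process or regulate SREBPs, 6 were tested, and 0 were called with BRM014. In the libraries labelled Chd4 shRNA 2 of 6 were called higher, beside 20.4% of all tested genes, and 1 lower, beside 20.2%. The former were Sec23a, a coat protein of vesicles leaving the endoplasmic reticulum, at 0.86 ± 0.17 (edgeR adjusted p = 0.000398), and Mbtps1, the site-1 protease that cuts SREBPs, at 0.61 ± 0.15 (adjusted p = 0.00276). Sar1b, a GTPase of the same coat, was lower at -0.40 ± 0.15 (adjusted p = 0.0413). Of 17 genes of sterol transport and efflux, 5 were tested. None was called with BRM014, and 1 of 5 (20%) was lower in the libraries labelled Chd4 shRNA, near the 20.2% of all tested genes: Nr1h2, a liver X receptor, at -0.43 ± 0.15 (adjusted p = 0.0248).

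Of 13 genes on isoprenoid branches that leave the sterol chain, 8 were tested. With BRM014 1 was called higher (12.5%, beside 2.46% of all tested genes), and under the Chd4 shRNA label 2 were lower (25%, beside 20.2%) and 1 higher (12.5%, beside 20.4%). Rabggtb, a subunit of the enzyme that attaches geranylgeranyl to Rab proteins, had the same signs as the sterol arm: 0.50 ± 0.12 with BRM014 (edgeR adjusted p = 0.0139) and -0.78 ± 0.13 in the libraries labelled Chd4 shRNA (adjusted p = 0.000133). Fnta, a subunit of protein farnesyltransferase, was lower in the latter at -0.61 ± 0.13 (adjusted p = 0.0011), and Dhdds, which makes dolichol chains, was higher at 0.41 ± 0.16 (adjusted p = 0.0393).

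Of 20 further fatty acid genes, 13 were tested, and 1 was called with BRM014 (7.69%, beside 2.46% higher of all tested genes). Acsl3, an acyl-CoA synthetase, was called higher in both comparisons, 0.65 ± 0.18 with BRM014 (edgeR adjusted p = 0.0292) and 0.73 ± 0.20 in the libraries labelled Chd4 shRNA (adjusted p = 0.00674). In the latter 4 of 13 were lower (30.8%, against 20.2% of all tested genes) and 2 higher (15.4%, against 20.4%). The lower ones included Slc25a1, the mitochondrial citrate carrier that supplies Acly with its substrate, at -1.09 ± 0.15 (adjusted p = 1.24e-05), and Hsd17b12, an enzyme of fatty acid elongation, at -0.90 ± 0.14 (adjusted p = 4.05e-05).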

How the data were processed

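The authors' deposited gene counts, whole reads per gene on mm10, and their deposited ERCC counts were used as given. Per the submitters' processing notes, Trim Galore 0.6.4, STAR 2.7.1a, featureCounts and edgeR 3.32.1 were used. The strand setting of counting is not given in the sources used here. The exon length of each gene, in bases, is a column deposited by the authors. One model over the 8 nascent RNA libraries and 4 groups was made in edgeR 4.0.16 (R 4.3.3), with the quasi-likelihood F test and SEs from F. It used 8017 genes that passed filterByExpr and had a mean count at least 10-fold above receptor background per kb (1434 genes, 5330.3 kb), with TMM sizes over these genes. Benjamini-Hochberg adjusted p under 0.05 was called. The column numbered r4 for Chd4 shRNA and the one numbered r3 for the scrambled shRNA correspond to no title and were assigned by group. The correlation of r1 minus r2 between BRM014 and DMSO was -0.23. That value does not show same-numbered libraries varying together, but it cannot settle whether libraries were prepared in pairs. No pairing was used in the main fit.

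The members, lists and processing were chosen with earlier results of these data known. Values in every library are given for Insig1, Insig2, Srebf1, Srebf2, Scap and the members called in either treatment or in their difference, other members by value or range, and at most 3 genes of each further list in each comparison, those with the smallest p. The smallest two-sided p an exact permutation test allows for 2 against 2 is 0.333. Alternatives were other gene sets, ERCC and DESeq2 1.42.0 sizes, DESeq2's Wald test, a robust fit, background subtraction, own libraries only, a replicate block and each library left out. In simulated counts over 8017 genes for the BRM014 comparison, the fit found 44 of 67 simulated 1.5-fold changes, 61 of 67 at 2-fold, and 66 of 66 at 4-fold. For the Chd4 shRNA comparison it found 29 of 67, 53 of 67 and 62 of 66, with 8 false calls in each. The simulation gave every gene and group the same spread and no difference in background, unlike these libraries. Its counts therefore check the fit and do not measure power or error in the data. Figures were drawn with matplotlib 3.10.9.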

Additional observations from a re-analysis of the deposited data

Results flagged for a closer look

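For 14 members the effect of Chd4 shRNA differed from the effect of BRM014 by edgeR's test of the difference itself, lower in each. Each value is the Chd4 shRNA effect minus the BRM014 effect on the log2 scale. Among sterol enzymes it was -1.72 for Msmo1, -1.54 for Idi1, -1.46 for Cyp51, -1.21 for Dhcr7, -1.18 for Mvd, -1.16 for Fdft1, -1.12 for Acat2, -0.95 for Fdps, -0.78 for Pmvk and -0.57 for Hmgcs1. Among regulators it was -2.30 for Insig1, where the BRM014 rise was known when the list was drawn up, and -0.74 for Srebf1. Among fatty acid enzymes it was -0.82 for Acly and -0.66 for Fads2. The Hmgcs1 call was lost in 9 of 20 alternatives and that of Fads2 in 7 of 20. With ERCC sizes and TMM none of these 14 was called, and on plain ERCC sums 1 was.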

How the results depend on the processing

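Of 39 called results of single members, recomputed in 793 fits, 651 kept direction and call, 139 lost the call and 3 reversed. Of 65 results not called, in 1317 fits, 119 became called and 6 reversed. The cause was not tested, beyond what each setting changes by its construction.

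Leaving out each library gave 3 to 11 members higher with BRM014, and 11 to 16 lower and 0 to 1 higher with Chd4 shRNA. It gave 12 to 18 lower and 0 to 1 higher for the difference, and 2 to 14 higher and 0 to 1 lower for scrambled against DMSO. The arm medians above that of all genes ranged from 0.21 to 0.35 (sterol, BRM014), from -0.39 to -0.13 (regulators, Chd4 shRNA), from -0.39 to -0.09 (fatty acid, Chd4 shRNA), the latter of each without scrambled library r1, and from 0.12 to 0.31 (sterol, controls). With BRM014 and controls, the count was highest without DMSO library r2, where calls over all genes rose as well. For the fatty acid arm the range included 0 with BRM014 (-0.05 to 0.26, the former without DMSO library r1), as it did for regulators in the controls (-0.01 to 0.19, likewise).

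With genes at least 3-fold above background, 24 members were lower with Chd4 shRNA and 25 for the difference, and 5 higher and 1 lower in the controls. At 30-fold, with fewer members in the fit, 2 were higher with BRM014, 9 lower for the difference and 4 higher in the controls. With filterByExpr genes, or with no filter, and gene TMM, 26 were lower with Chd4 shRNA and for the difference, and 2 higher and 1 lower in the controls. There the median of all tested genes moved by -1.34 and -1.501 with Chd4 shRNA, and -0.37 at 3-fold. Genes called lower with Chd4 shRNA were then 11134 of 35426 and 11939 of 54064, and 3873 of 15464 at 3-fold. For the difference they were 9721, 10330 and 3242. ERCC sizes with TMM gave 0 members in each of these counts. Plain ERCC sums gave 1 higher with BRM014, 0 lower and 1 higher with Chd4 shRNA, 1 lower for the difference and 4 higher in the controls. For the controls, DESeq2 gave 5 higher and own libraries 3.

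Values that reversed were, on plain ERCC sums, Mvk 0.11 and Tm7sf2 0.051 with Chd4 shRNA and Hmgcs1 0.042 for the difference. With filterByExpr genes and with no filter, Ebp was -1.02 and -1.18 and Srebf2 -1.28 and -1.43 with Chd4 shRNA, and Ebp -0.97 and -1.12 for the difference.

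Counts over all genes moved more than 1.5 times too. With BRM014 they ranged from 0 to 762 higher and 0 to 803 lower, and with Chd4 shRNA from 61 to 11493 and 6 to 11939. For the difference they ranged from 23 to 6569 and 1 to 10330, and for the controls from 0 to 1054 and 3 to 995. The replicate block on BRM014 and DMSO numbers gave 4 members higher with BRM014 and 5 in the controls. With the numbers crossed, a setting added after the data were seen, these were 6 and 3, and the sterol arm's median in the controls was 0.14. No paired analysis was possible for Chd4 shRNA against scrambled shRNA because their columns share only r1. The difference was not run on own libraries. Scap, Insig2, Hsd17b7, Sc5d and Acaca are limited by their small distance from background, which more reads would not change. Insig1 is kept in the counts of members given here.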
